A study of Mus musculus with 6 samples.

Results

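The small heat shock proteins measured here are 5 genes, HSPB1, HSPB2, HSPB6, HSPB7 and CRYAB. They were found by name, as every spot whose gene symbol is HSPB with a number or CRYAB, which gave 18 of 5376 spots, 9 of 2688 probes and 5 of 1521 named genes. HSPB1 had 3 probes, CRYAB and HSPB7 had 2 each, and HSPB2 and HSPB6 had 1 each, every probe being printed as 2 neighbouring spots. Each array compared RNA of the C2C12 MyoD-silenced clone MyoD(-)cl.A8 with RNA of C2C12 control cells on Human Array 1.0, a 2-colour array that carries probes for human muscle genes. C2C12 is a mouse myoblast line, derived from C3H muscle, that fuses into myotubes when growth serum is replaced by a low amount of horse serum, and both cell populations were taken at days 1, 3 and 6 of that differentiation. The clone had been transfected with the mouse MyoD transcript in antisense orientation in the vector pcDNA 3.0 and selected with G-418. It is a single clone, and the sources used here do not say whether the control cells carried an empty vector. At each day the same comparison was run on 2 arrays, replicate A with Cy5 on the clone and replicate B with Cy3 on the clone. The arrays of a day count as 1 replicate, so n = 3 days.

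Small heat shock proteins are chaperones that work without ATP. They bind partly unfolded proteins, assemble into large oligomers with one another, and hold their clients until the ATP-driven chaperones of the HSP70 family can refold them. Skeletal muscle is rich in several of them, where they associate with desmin and actin filaments, filamins and the Z-disc, and some of them are induced as myoblasts differentiate. The transcription factor HSF1 switches on many heat shock genes through short inverted GAA repeats in their promoters, while MyoD, the factor silenced in the clone, binds E-boxes.

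Because both kinds of site are known by sequence, the 250 bases before the annotated start of the mouse genes are shown with both motifs in capitals: the E-box CANNTG, and the heat shock element core GAANNTTC or TTCNNGAA, each of which reads the same on both strands. Of the 5 genes, 3 matched an entry by symbol, with 4 start sites among them (RefSeq, GRCm38.p6, plus strand). The Hspb1 sequence lies at chr5:135887669-135887918, the 2 Hspb6 sequences at chr7:30552290-30552539 and chr7:30553051-30553300, and the Hspb7 sequence at chr4:141420529-141420778.
Hspb1: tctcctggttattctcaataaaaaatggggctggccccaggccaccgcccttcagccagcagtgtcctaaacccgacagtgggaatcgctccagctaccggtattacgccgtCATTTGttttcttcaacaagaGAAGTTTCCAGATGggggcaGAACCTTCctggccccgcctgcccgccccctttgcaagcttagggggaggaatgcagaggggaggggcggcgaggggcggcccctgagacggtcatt
Hspb6, upstream start: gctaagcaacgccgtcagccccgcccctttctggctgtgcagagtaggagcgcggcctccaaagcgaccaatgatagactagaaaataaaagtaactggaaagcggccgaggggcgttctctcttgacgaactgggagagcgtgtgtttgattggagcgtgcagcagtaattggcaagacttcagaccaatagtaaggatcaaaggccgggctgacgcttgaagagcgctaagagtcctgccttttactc
Hspb6, downstream start: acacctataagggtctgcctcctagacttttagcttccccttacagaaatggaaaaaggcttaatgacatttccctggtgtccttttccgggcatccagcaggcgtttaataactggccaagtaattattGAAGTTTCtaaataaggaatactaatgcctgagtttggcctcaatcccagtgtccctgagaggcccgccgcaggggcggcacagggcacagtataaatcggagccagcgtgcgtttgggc
Hspb7: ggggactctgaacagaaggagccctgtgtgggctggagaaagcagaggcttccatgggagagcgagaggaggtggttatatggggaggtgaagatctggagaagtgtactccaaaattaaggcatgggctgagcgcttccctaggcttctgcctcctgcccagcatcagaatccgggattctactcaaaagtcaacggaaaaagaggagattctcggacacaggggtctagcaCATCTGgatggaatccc

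The Hspb1 window held 2 E-boxes, CATTTG and CAGATG, which begin 138 and 109 bases before the start. It also held 2 heat shock element cores, GAAGTTTC at 117 bases, directly followed by the second E-box, and GAACCTTC at 97 bases. The Hspb7 window held 1 E-box, CATCTG, and no heat shock core, and the downstream Hspb6 window held 1 heat shock core and no E-box. Of 32851 mouse promoter windows of this length, 66.2% held an E-box and 31.8% at least 2, so an E-box is common at this length. A heat shock core was found in 12.8% of them. These matches describe letters in a window, and binding of MyoD or HSF1 was not measured here. In the RefSeq annotation Cryab and Hspb2 overlap each other on mouse chromosome 9.

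The values are scores, 1 per spot. Neither their scale and centring nor their direction is stated, so differences are given in score units and not as fold changes. A positive score is read as higher in the clone, a likely direction, because in the labels the clone is named Test and the control cells Reference. For scale, the SD of all features on an array was 1.07 to 1.28 units, and array medians lay within -0.07 and 0.03. Duplicate spots correlated at 0.25 to 0.60 over all probes of an array. Over the 54 pairs of duplicate spots of the small heat shock proteins (9 probes on 6 arrays), 42 had the same sign (77.8%), against 60.5% for all probes, with a median difference of 0.70 units and a largest of 4.51 units. Scores also followed position on the array: probes 2 places apart in spot order correlated at 0.11 to 0.38, and adjacent ones at -0.02 to 0.14. Over all features the 2 arrays of a day correlated only weakly, at 0.16 to 0.21, and arrays of different days at -0.08 to 0.12. The scores of replicate B were averaged with those of replicate A with their sign as deposited, although the dyes are swapped. The silenced gene itself, MYOD1, averaged 0.15 ± 0.20 units (SD, n = 3 days), a value that does not check the silencing, since the construct is made of MyoD sequence. Of 14 listed muscle markers 9 were measured, with a median over the days of 0.08 that joins unlike days: -0.24 on day 1, -0.15 on day 3 and 0.76 on day 6. Of the markers of other lineages only TAGLN and CNN1 (fibroblast and smooth muscle, 2 of 8 listed, median -0.31) and SCD and FABP4 (fat, 2 of 5 listed, median -0.0011) were measured, and no marker passed limma's test. Scores cannot show whether a marker was present, and more RNA per cell and more cells of a kind cannot be told apart in bulk RNA.

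HSPB1 stood higher in the clone on all 6 arrays, CRYAB and HSPB2 on 5 of 6 each, HSPB6 lower on 5 of 6, and HSPB7 was divided 3 to 3. None of the 5 genes passed the test of a change shared by the 3 days, which is limma on the day means with Benjamini-Hochberg adjustment over all features and a threshold of 0.05. That test called 9 of 2466 features (0.365%). At an unadjusted p under 0.05 there were 2 of the 5 genes, HSPB1 and CRYAB, and 164 of all features. An exact sign-flip permutation test over the 3 days cannot go below p = 0.25 (two-sided). Every feature whose 3 day means share a sign reaches that value, so it does not set HSPB1, CRYAB and HSPB2, which reached it, apart. CRYAB did so with a day 1 mean of only 0.03 units. The median of the 5 means was 0.92 units against 0.0028 over all features, with 3 of 5 above 0 against 50.3% of features. Being above 0 on all 6 arrays was met by 1 of the 5 genes and by 2.64% of features. Being below 0 on all 6 was met by 0 of the 5 and by 2.88% of features.

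**Figure D1:**
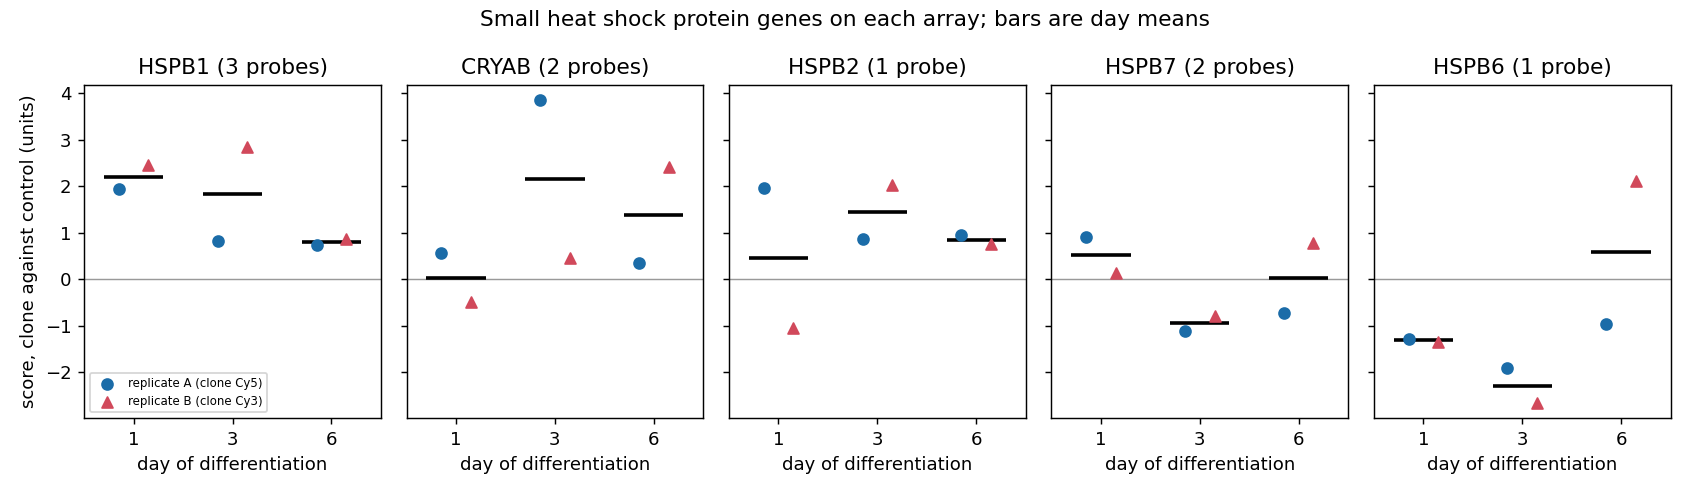
Score of the clone against the control (units, vertical axis) for each small heat shock protein gene at days 1, 3 and 6 (horizontal axis); circles are replicate A, triangles replicate B, and bars the day means. HSPB1 is above 0 on every array, with its lowest point at 0.74, while HSPB6 is above 0 only on the day 6 replicate B at 2.11.

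HSPB1 (Entrez Gene 3315) encodes the ubiquitous small heat shock protein that guards actin filaments and unfolding proteins under stress. Averaged over its probes it scored 1.95 and 2.45 on day 1 (replicates A and B), 0.82 and 2.83 on day 3, and 0.74 and 0.86 on day 6. All 6 values were above 0, day 1 was high on both arrays, day 3 was high on replicate B only, and both day 6 arrays were low. The mean over the days was 1.61 ± 0.73 units (SD, n = 3 days). Its 95% interval of 0.65 to 2.56 is limma's, from a standard error of 0.45 that pools spread over all features. An interval from the SD of the 3 days alone would be wider, here and for the other genes below. The adjusted p in limma was 0.163. Among all features HSPB1 ranked 22 of 2466 from the top, and 11 among the 1521 genes. On single arrays it lay between the 74.5th and the 99.1st percentile of all features.

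The 3 HSPB1 probes differed in size. Probe 1, at spots 45 and 46, scored 2.78 and 3.04 on day 1, 1.00 and 3.08 on day 3, and 0.24 and 2.18 on day 6. Its spots scored 1.38 and -1.02 before centring on the day 6 replicate A, so the 0.24 joins opposite signs. Probe 3, at spots 3889 and 3890, scored 1.60 and 3.21 on day 1, 0.71 and 5.57 on day 3, and 1.04 and 1.06 on day 6. Both probes were therefore above 0 on 6 of 6 arrays, each highest on the day 3 replicate B, and their values over the 6 arrays correlated at r = 0.68. Of all 2688 probes, 71 (2.64%) were above 0 on all 6 arrays, among them these 2 of the 9 probes. Probe 2, at spots 3875 and 3876, scored 1.45 and 1.11 on day 1, 0.80 and -0.17 on day 3, and 0.92 and -0.74 on day 6. It was above 0 on 4 of 6 arrays and did not follow the others (r = -0.13 and -0.22 over the same 6 arrays).

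Fitted as separate probes, the means were 2.05 ± 0.85 units for probe 1 (limma's adjusted p = 0.0779), 2.20 ± 1.06 for probe 3 (0.0707) and 0.56 ± 0.63 for probe 2 (0.958; SD, n = 3 days each). No probe of the 9 passed, against 7 of 2688 probes in all (0.26%), and 4 of the 9 had an unadjusted p under 0.05, against 184 in all. Without probe 2, a choice made after its values were seen, HSPB1 averaged 2.13 units with limma's adjusted p = 0.0521. Neighbours were the 10 nearest probes at even places in spot order, which leaves out the adjacent ones. Their medians averaged 0.10, -0.05 and 0.06 units around probes 1, 3 and 2. On single arrays they reached -1.67 around probe 3 on the day 3 replicate A. HSPB1 averaged 1.57 units with these neighbours subtracted and stayed above 0 on all 6 arrays, while probe 1 alone fell below 0 on the day 6 replicate A, at -0.37.

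**Figure D2:**
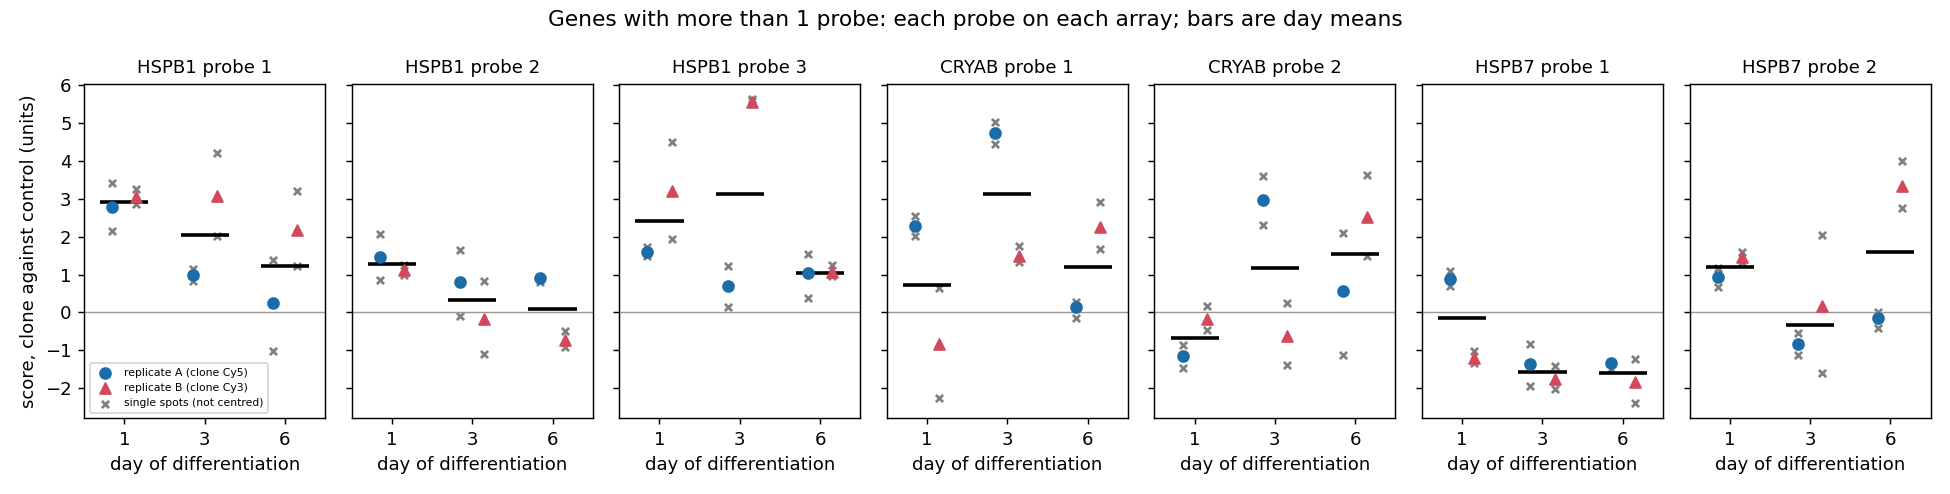
Score of the clone against the control (units, vertical axis) for each probe of HSPB1, CRYAB and HSPB7 at days 1, 3 and 6; circles and triangles are replicates A and B, crosses the single spots before centring, and bars the day means. HSPB1 probes 1 and 3 (spots 45 and 3889) are above 0 on every array, whereas HSPB1 probe 2 (spot 3875) has day means of 1.28, 0.31 and 0.09, and the HSPB7 probes lie apart on day 6 at -1.60 and 1.60.

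CRYAB (Entrez Gene 1410), the alpha-B crystallin that chaperones desmin in muscle, scored 0.56 and -0.50 on day 1 (replicates A and B), 3.85 and 0.45 on day 3, and 0.35 and 2.40 on day 6. The day 3 replicate A was the highest value of any of the 5 genes, while the other array of that day lay near 0, so the arrays of a day were far apart. The mean was 1.18 ± 1.07 units (SD, n = 3 days, limma's 95% interval 0.18 to 2.19 and adjusted p = 0.620). Without the day 3 replicate A it was 0.62, and without day 3 it was 0.70.

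The probes of CRYAB agreed in sign on 4 of 6 arrays. The probe at spots 87 and 88 scored 2.28 and -0.84 on day 1, 4.75 and 1.5002 on day 3, and 0.13 and 2.25 on day 6, with a mean of 1.68 ± 1.27 units. The probe at spots 5085 and 5086 scored -1.17 and -0.17 on day 1, 2.98 and -0.62 on day 3, and 0.55 and 2.52 on day 6, with a mean of 0.68 ± 1.18 units. Both probes were high on the day 3 replicate A and on the day 6 replicate B. On the day 6 replicate B the neighbours of the first probe had a median of 2.03 units, and subtracting them left 0.26. On the day 3 replicate A the neighbours of the second probe had a median of 1.07, and subtracting them left 1.90. The other high values became larger by this step, 5.08 for the first probe on the day 3 replicate A and 3.02 for the second probe on the day 6 replicate B. The mean of CRYAB over the days was 1.09 with neighbours subtracted.

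HSPB2 (Entrez Gene 3316), a muscle small heat shock protein known as a binder of the myotonic dystrophy kinase DMPK, scored 1.97 and -1.05 on day 1, 0.86 and 2.03 on day 3, and 0.95 and 0.74 on day 6. Only the day 1 replicate B lay below 0. On the day 3 replicate A the 2 spots of its probe scored 3.12 and -1.40 before centring, so the 0.86 joins opposite signs. First spots alone gave a day 3 mean of 2.45, and second spots alone 0.41. The mean was 0.92 ± 0.50 units (SD, n = 3 days, limma's 95% interval -0.01 to 1.84 and adjusted p = 0.731). It was 0.41 without the day 1 replicate A and 1.42 without the day 1 replicate B. HSPB2 and its overlapping neighbour CRYAB correlated at r = 0.16 over the 6 arrays, which share the same RNA within a day.

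HSPB6 (Entrez Gene 126393), the small heat shock protein known for its part in smooth muscle relaxation and in protecting heart muscle, was the lowest of the 5 genes. It scored -1.28 and -1.35 on day 1, -1.92 and -2.67 on day 3, and -0.97 and 2.11 on day 6. The 4 values of days 1 and 3 were close together within each day and below 0, and the day 6 arrays had opposite signs. On day 1 that closeness arose on averaging the 2 spots of its probe, which were far apart before centring. They scored -2.11 and -0.45 on replicate A, and 0.11 and -2.78 on replicate B. The mean was -1.01 ± 1.46 units (SD, n = 3 days, limma's 95% interval -2.10 to 0.07 and adjusted p = 0.751). HSPB6 ranked 2392 of 2466 from the top. Leaving out the day 6 replicate B gave -1.53, leaving out its replicate A -0.50, leaving out day 3 -0.37 and leaving out day 6 -1.80. The neighbours of its single probe had medians of -1.41 on the day 1 replicate B and 2.06 on the day 6 replicate B, close to its own scores there. With the neighbours subtracted HSPB6 scored -1.31 and 0.08 on day 1, -2.23 and -2.20 on day 3, and -0.31 and 0.10 on day 6. After that subtraction only day 3 had both arrays far below 0.

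HSPB7 (Entrez Gene 27129), a small heat shock protein of heart and skeletal muscle that binds filamin C, scored 0.91 and 0.12 on day 1, -1.12 and -0.78 on day 3, and -0.74 and 0.77 on day 6. The mean was -0.14 ± 0.75 units (SD, n = 3 days, limma's 95% interval -1.10 to 0.82 and adjusted p = 0.983). Its probes had the same sign on 3 of 6 arrays, so this mean joins unlike values. The probe at spots 823 and 824 scored 0.89 and -1.20 on day 1, -1.37 and -1.77 on day 3, and -1.35 and -1.86 on day 6. The probe at spots 3777 and 3778 scored 0.92 and 1.45 on day 1, -0.83 and 0.18 on day 3, and -0.14 and 3.34 on day 6. The first probe was below 0 on 5 of 6 arrays, with a mean of -1.11 ± 0.83 units, and the second above 0 on 4 of 6, with a mean of 0.82 ± 1.01 units (limma's adjusted p = 0.637 and 0.830 over all probes).

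**Figure D3:**
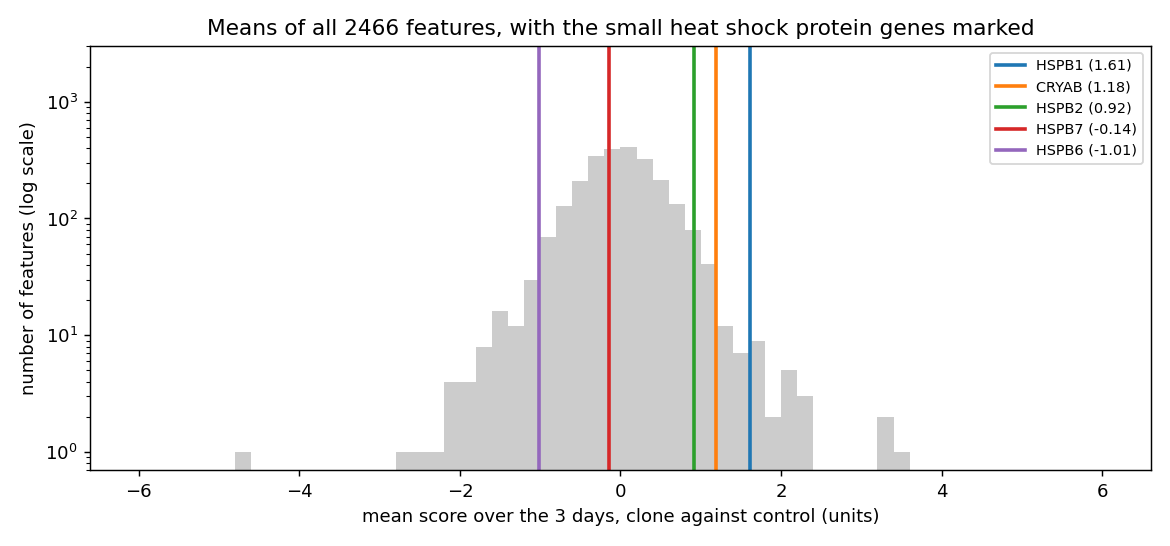
Number of features (vertical axis, log scale) by mean score over the 3 days (horizontal axis, units), with vertical lines at the 5 small heat shock protein genes. HSPB1 at 1.61 and CRYAB at 1.18 lie in the upper tail of the 2466 features, HSPB6 at -1.01 in the lower tail and HSPB7 at -0.14 in the middle.

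The single days asked whether the genes differed early or late. On day 1 the order from high to low was HSPB1 (2.20), HSPB7 (0.52), HSPB2 (0.46), CRYAB (0.03) and HSPB6 (-1.32). On day 3 it was CRYAB (2.15), HSPB1 (1.83), HSPB2 (1.44), HSPB7 (-0.95) and HSPB6 (-2.29), and on day 6 CRYAB (1.38), HSPB2 (0.84), HSPB1 (0.80), HSPB6 (0.57) and HSPB7 (0.01). The limma standard error of a day mean was 0.65 to 0.81 units, so most neighbours in these orders differed by less than the error of either. The exceptions were HSPB1 over HSPB7 and CRYAB over HSPB6 on day 1, and HSPB2 over HSPB7 and HSPB7 over HSPB6 on day 3. On day 6 there was none. The median of the 5 genes was 0.46 on day 1, 1.44 on day 3 and 0.80 on day 6. The 9 muscle markers had 3, 4 and 8 day means above 0 on days 1, 3 and 6, while all features had medians of 0.018, 0.0004 and 0.0034. The highest markers on day 6 were ACTA1 (1.70), DES (1.57), TNNT1 (1.26) and TNNT3 (1.17), and the lowest was MYF6 (-0.16). ACTA1 scored -0.58 and 3.97 on the day 6 replicates A and B, and DES 0.14 and 3.01, so both means rest on replicate B. The part of the muscle markers in the day 6 values of the 5 genes was not tested.

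No gene reached 2 units above 0, or 2 units below it, on both arrays of a day. Of all features, 0.527% did so above 0 on day 1, 0.446% on day 3 and 0.689% on day 6, and 0.284%, 0.811% and 1.14% did so below 0. HSPB1 on day 1 came closest above 0, with its lower array at 1.95, and HSPB6 on day 3 below 0, with its nearer array at -1.92. Of the 9 probes, HSPB1 probe 1 alone did reach 2 units on both day 1 arrays, as 0.558% of all probes did. In a second fit, limma used the single arrays. Its error came from the spread between the 2 dye orientations of a day, pooled over the 3 days and all features. None of the 5 genes passed on any day in this second fit. That fit called 0.243% of features on day 1, 0.324% on day 3 and 0.284% on day 6. Unadjusted, p was under 0.05 for 1 of the 5 genes on day 1 (HSPB1, 0.0050), for 3 on day 3 (HSPB6, 0.0071; HSPB1, 0.0155; CRYAB, 0.0182) and for none on day 6, against 152, 236 and 273 of all features. The lowest adjusted p among the 5 genes was 0.250 in limma, for HSPB6 on day 3.

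Between days, HSPB1 moved by -0.37 units from day 1 to day 3 and by -1.40 from day 1 to day 6 (limma standard error 0.95). CRYAB moved by 2.12 and 1.35 (standard error 1.15), HSPB2 by 0.99 and 0.39 (1.05), HSPB6 by -0.98 and 1.89 (1.04), and HSPB7 by -1.47 and -0.50 (0.92). From day 3 to day 6 the largest move was that of HSPB6, 2.87 units, which rests on the day 6 replicate B: without it the move was 1.33, and without the replicate A 4.41. None of these moves passed limma's test against array spread, in which 0.162% of features were called from day 1 to day 3, 0.365% from day 1 to day 6 and 0.0406% from day 3 to day 6. The adjusted p of HSPB6 from day 3 to day 6 was 0.436 in limma, and it was the only 1 of the 15 moves with an unadjusted p under 0.05. Of all 2466 features, 188 had such a p from day 1 to day 3, 204 from day 1 to day 6 and 216 from day 3 to day 6.

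Over the 6 arrays the genes did not share 1 course. HSPB1 correlated with CRYAB at r = -0.65, with HSPB6 at -0.53, with HSPB2 at 0.04 and with HSPB7 at 0.10, while HSPB6 and HSPB7 correlated at 0.62. These correlations describe 6 arrays of 3 RNA pairs. The 5 genes most like HSPB1 over the 6 arrays, of 786 with a day mean at least 1 unit from 0 or 1 sign throughout, were RPL21 (r = 0.95), a ribosomal protein, NUPR1 (0.93), a stress-induced chromatin protein, SUCLG1 (0.90), a subunit of the mitochondrial succinyl-CoA ligase, PMEPA1 (0.90), a membrane inhibitor of TGF-beta signalling, and VKORC1L1 (0.89), a vitamin K epoxide reductase. They were alike in the order of the arrays and not in level, since their means over the days lay between -0.87 and 0.51 units. Being the highest of 786 correlations over 6 arrays, their r values are high in part because they were picked. Next to HSPB1 in level among the genes stood TOB2 (1.68) and the polyubiquitin gene UBB (1.67) above it, and ATP5MC3 (1.58) and CHCHD2 (1.498) below it. None of these 4 passed the shared test in limma (adjusted p from 0.121 to 0.468).

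Other chaperones were described from lists. In the HSP90 group with its co-chaperones, 7 of 17 listed genes were measured, and all 7 had a mean above 0, with a median of 0.78 units. SUGT1, a co-chaperone of HSP90, averaged 2.12 ± 0.88 units (SD, n = 3 days; limma's adjusted p = 0.0567), and STIP1, which links HSP70 to HSP90, averaged 1.25 ± 0.81. The lowest were HSP90AB1 (0.06) and HSP90AA1 (0.33), the cytosolic HSP90 chaperones themselves. SUGT1 scored -1.17 and 3.42 on day 1, 2.21 and 3.38 on day 3, and 3.86 and 1.02 on day 6, so its arrays of day 1 had opposite signs. It passed limma's test with values as deposited (adjusted p = 0.0394), with neighbouring probes subtracted (0.0414) and without day 1 (0.00452).

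The HSP70 group had 2 measured genes of 16, the mitochondrial HSPA9 (0.57) and the stress-inducible HSPA1A (0.55). Of 4 HSP40 genes, which stimulate HSP70, 3 lay above 0, from DNAJB6 (0.52) and DNAJB5 (0.43) to DNAJC4 (0.36), and DNAJB1 averaged -0.65, with a list median of 0.40. Chaperonin and prefoldin genes, 6 measured of 17, had 2 above 0 and 4 below and a median of -0.14. That median joins unlike days: -0.76 on day 1, 0.76 on day 3 and 0.13 on day 6. With a day left out it ran from -0.43 to 0.44. HSPE1, the mitochondrial co-chaperonin, averaged 1.94 ± 1.18 units (limma's adjusted p = 0.104) and CCT7 0.86, while TCP1 averaged -0.96 and VBP1 -0.32. Of the regulators, 3 measured of 12, HSF1 averaged 0.81, the HSP70 co-chaperone BAG1 0.80 and HSPBP1, an inhibitor of HSP70, -0.31, with a median of 0.80. With a day left out the median of these regulators ran from 0.04 to 0.94. In all 5 chaperone lists 0 of 22 genes passed the shared test in limma, against 9 of 2466 features, and 5 had an unadjusted p under 0.05, against 164 of 2466.

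**Figure D4:**
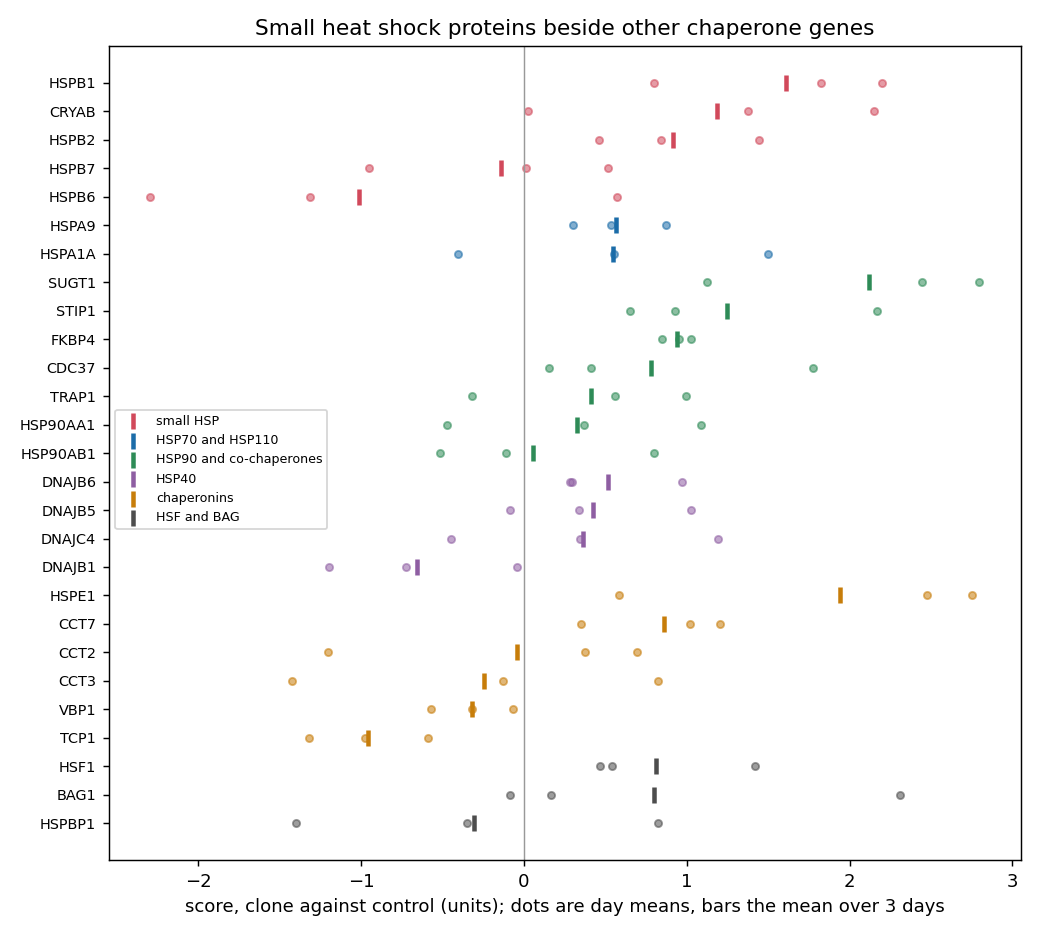
Score of the clone against the control (units, horizontal axis) for the small heat shock proteins and the other chaperone genes (vertical axis); dots are the 3 day means and bars the mean over the days, coloured by list. SUGT1 at 2.12 and HSPE1 at 1.94 lie above HSPB1 at 1.61, and the small heat shock proteins span -1.01 to 1.61.

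Known partners of small heat shock proteins in filaments, actin and the Z-disc, 10 measured of 17, had 5 means above 0 and 5 below and a median of -0.08. With a day left out that median ran from -0.33 to 0.38. The intermediate filament gene DES averaged 0.90 ± 0.79 units and the Z-disc gene MYOT 0.74, while the Z-disc gene LDB3 averaged -1.24 ± 0.99 and the cytoplasmic actin ACTG1 -0.79. Genes of oxidative stress and autophagy, 11 measured of 20, had 4 above 0 and 7 below and a median of -0.23, with UBB at 1.67 ± 1.15 and PRDX1 at 0.29 on the high side and the antioxidant enzymes GPX1 at -1.22 ± 0.43 and PRDX6 at -1.03 ± 1.35 on the low side. None of the 21 genes passed limma's shared test, against 0.365% of features, and 3 had an unadjusted p under 0.05, against 164 of 2466 features. UBB scored 5.18 on the day 1 replicate A and 0.59 on the replicate B of that day, so its arrays of day 1 were far apart.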

How the data were processed

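RNA of clone and control was labelled with a tyramide kit (MICROMAX TSA), per the labels' protocols. What the authors deposited is 1 score for every spot of every array. The sources used here do not give its filtering, normalization or scale, and 2 scores lie beyond 16 units, so they were not read as log2 ratios. The design had assumed values that may be log2 ratios or scores; the same tests were used, in units. A platform annotation named 3486 spots and not 1890. Duplicate spots were averaged, then probes of a gene, giving 2466 features, and each array was centred on its median. Whether mouse RNA bound each human probe specifically was not tested; probe sequences were not used here.

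limma 3.58.1 (R 4.3.3, statmod 1.5.0) tested the 3 day means against 0, and the 6 arrays with days as coefficients, two-sided, with Benjamini-Hochberg adjustment over all features. p-values measure only how far these RNA samples and arrays differ, possibly for technical reasons. Tested on simulated data for the shared change with 2466 features, changes of 2 units were recovered in 91.6% and of 4 units in 100% of cases, with 4.08% false calls. The simulation planted many more changed features than the 9 called here, with independent normal noise. More changes ease the adjusted threshold, so these shares check the code and do not give the power in these data. The number of arrays limits the precision.

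Named genes are all members, the 2 highest and 2 lowest of each list, the 5 most correlated with HSPB1 and its 2 neighbours in rank on each side. The members and lists were chosen with earlier results of these data known. Alternatives were separate probes, probe medians, no centring, scaling, neighbouring probes subtracted (10 at even places), genes only, a robust prior, separate arrays with and without a replicate block, single spots, other unit thresholds, and leaving out arrays or days; leaving out single probes was added after seeing the data. Figures used Python 3.11.15 and matplotlib 3.10.9.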

Additional observations from a re-analysis of the deposited data

Results flagged for a closer look

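HSPB7 was picked out because both of its day 1 arrays lay above 0 (0.91 and 0.12) and both of its day 3 arrays below 0 (-1.12 and -0.78), a move of -1.47 units from day 1 to day 3. In limma's test against array spread this difference did not pass (adjusted p = 0.765). It was -1.41 for the probe at spots 823 and 824 and -1.51 for the probe at spots 3777 and 3778. Neither probe had the flagged signs by itself: the first scored 0.89 and -1.20 on day 1, and the second -0.83 and 0.18 on day 3.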

How the results depend on the processing

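No small heat shock protein gene passed limma under any alternative (406 values, lowest adjusted p 0.0521), and 383 of these values kept their direction. Day means reduced to 1 array have no test, and of these CRYAB and HSPB2 on day 1 ran from -0.50 to 0.56 and from -1.05 to 1.96, and HSPB6 and HSPB7 on day 6 from -0.97 to 2.11 and from -0.74 to 0.77. HSPB1 averaged above 0 under all 25 alternatives, from 0.56 to 2.20 units, and 1.27 to 2.01 with an array or day left out. The tested values below turned direction, and none had passed. With an array or day left out, HSPB7's mean ran from -0.47 to 0.26, its move from day 1 to day 6 from -1.25 to 0.25, HSPB2's move from day 1 to day 3 from -0.52 to 2.49 and to day 6 from -1.12 to 1.89, HSPB1's move from day 1 to day 3 from -1.38 to 0.63, and CRYAB's move from day 3 to day 6 from -2.47 to 0.93. By probe, HSPB7's mean was 0.82 for its second probe alone (0.83 refitted without the first), and its first probe alone gave -0.16 on day 1 (both fits) and -1.60 (-1.59 refitted) on day 6. CRYAB's second probe alone gave -0.67 on day 1 in both fits. First spots only gave HSPB7 -0.041 on day 6 and HSPB1 0.25 from day 1 to day 3. Second spots only gave CRYAB -0.26 on day 1 and HSPB2 -0.12 from day 1 to day 3 and 0.65 from day 3 to day 6. As deposited, HSPB7 was -0.012 on day 6, and with neighbours subtracted HSPB6 was -0.10 on day 6. Causes were not tested.

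The count of 0 genes past 2 units on both arrays became, on day 1, 2 at 1 unit (HSPB1, HSPB6), and 1 at 1.5 units, with scaling and with second spots only (HSPB1 each time). Of all features, 3.28% lay above and 3.89% below at 1 unit that day, and 0.933% each at 1.5 units. On day 3 it became 1 at 1 and 1.5 units and with neighbours subtracted (HSPB6, below 0 each time). Of all features, 4.22% lay below at 1 unit that day and 1.82% at 1.5 units. With first spots only the day 3 count became 2, HSPB6 below 0 and HSPB2 above 0. The shares of all features with scaling, single spots or neighbours subtracted were not counted, so those member counts have no share beside them. The count of 0 list genes became 1, SUGT1, as deposited, with neighbours subtracted and without day 1 (range 0 to 1 with a day left out). A replicate block, which is the dye orientation, changed no call and left day means as they were. HSPB1 on day 1 stayed at 2.20, with limma's adjusted p = 0.701 against 0.458. Deviations from the day mean correlated at -0.04 to 0.00 between arrays of the same letter. As the letter is the dye orientation, these correlations cannot show whether samples were paired across days. Brightness of the spots was not analysed, so how far a member stood above background is unknown.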
